A study of Drosophila melanogaster with 14 samples.

Results

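Whole newly eclosed adults of the fruit fly Drosophila melanogaster were compared with late embryos in 5 control libraries, out of 14 libraries in a study of the transcription factor gene lola. The 3 embryo libraries are the lola-F controls and the 2 adult libraries are the lola-O controls, chosen by their labels alone. The study set embryos or adults mutant for parts of lola (lola-F, lola-null and lola-O) beside such controls. All 5 control libraries have the genotype Wild type / Df(2R)ED2076, in which one copy of a segment of the right arm of chromosome 2 is deleted, so embryos and adults share that deletion. The lola-F control embryos were laid over 2 h at 25 °C, aged for 13 h, labelled 15 h after fertilization, and pooled at 100 embryos per library. The lola-O control adults were frozen within 10 h of eclosion, with 10 flies per library. The labels give neither the sex of the flies nor whether the replicates were separate collections, so the p-values measure the spread between these libraries, which may be technical. Each library was made from 1 µg of DNase-treated RNA with a strand-preserving kit.

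A fly embryo at this age has its germ layers in place and is finishing its larval body: gut, larval muscle, tracheal tubes, a first cuticle and a larval nervous system. Larval growth and metamorphosis lie between it and the adult, which has compound eyes, antennae, wings driven by fibrillar flight muscle, and gonads in which males already make sperm. Many fly genes exist as families of near relatives that are used at different stages or in different organs. The testis in particular uses its own versions of tubulin, proteasome and mitochondrial proteins. In pooled whole animals, fewer cells of a type and less RNA per cell cannot be told apart.

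The libraries held 3326811, 9087030 and 11542534 gene counts in embryo controls 1, 2 and 3, and 10078884 and 12717467 in adult controls 1 and 2. Levels are given as CPM, the counts of a gene scaled to a common library size, after TMM scaling, which sets library sizes so that most genes do not differ on average. A library-set difference comes before any result: the 37 genes of the mitochondrial genome are listed at 0 in all 10 embryo libraries of the study, whose files are named as filtered, and took 2165394 and 1865315 counts in the adult controls, whose files are not. The 17 mitochondrial genome genes tested are therefore not read as a stage difference, and stage, library set and file treatment cannot be told apart for them. Embryo control 1 also stood apart, with 66.7% of its reads in the counter's summary rows and 65.2% mapped to several places, against 7.75% or less in the summary rows of embryo controls 2 and 3 and 9.41% or less in those of the adults. Small nucleolar RNAs took 0.731% of its gene counts and 0.0127% or less in each of the other 4.

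Adult organ markers fitted the adult label. The 6 photoreceptor markers were called higher in adults, as were 4 of 5 antennal, 3 of 4 flight muscle, 5 of 5 testis and 4 of 4 accessory gland markers. The 5 testis markers summed to 0.77, 0.986 and 1.77 CPM in the embryo libraries and 1398 and 1869 CPM in the adults, and the 4 accessory gland markers to 0.257, 0.197 and 0.242 CPM against 882 and 1010 CPM. Genes of these male organs were thus read in both adult pools. Markers of female yolk and ovary were low in the adults but not all at 0. Whether females within 10 h of eclosion express these genes was not tested, so the low values do not give the share of females. The 3 yolk protein genes summed to 0.257, 0.986 and 0.644 CPM in embryos and 16.2 and 11.5 CPM in adults, and 2 of them were called higher, Yp2 and Yp3, the latter at 14.5 and 9.996 CPM in adults, while Yp1 stood at 0.128 and 0.0854 CPM there. Yp2 lost its call whichever adult library was left out (adjusted p = 0.0689 and 0.0669). The 5 ovary markers found summed to 11.6, 5.52 and 0.403 CPM in embryos and 2.70 and 4.70 CPM in adults, with the eggshell gene Cp15 called higher and Cp16 and Cp36 at 0 in all 5 libraries. Of the 10 genes chosen to mark the late embryo, 2 were called lower in adults, mira and wor, both of dividing neural precursors, and 5 were called higher in adults, namely the cuticle genes Osi6 and Osi7, the tracheal chitin-binding gene Gasp and the chitin deacetylase genes verm and serp. The other 3 did not pass the test, so this marker list did not separate the stages in the direction of its name. Without adult control 1, verm and serp were not called (adjusted p = 0.118 and 0.117). The mutated gene of the study, lola, stood at 267, 251 and 338 CPM in the embryo controls and 135 and 115 CPM in the adults, a log2 difference of -1.19 (SE 0.21, adjusted p = 0.00118), with the groups apart.

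Of 12902 genes tested with edgeR's quasi-likelihood test, 5176 (40.1%) were higher in adults and 3412 (26.4%) lower at an adjusted p under 0.05. Over 4-fold, 3449 genes (26.7%) were higher and 1062 (8.23%) lower. The 3 embryo values and the 2 adult values did not overlap for 80.2% of tested genes, so a lack of overlap is common here. The median log2 difference of all tested genes was 0.19 and moved to 0.28 with RLE size factors and to -0.05 with upper quartile scaling. The share of calls that were higher in adults was 60.3%, 52.0% with upper quartile scaling and 49.5% once a trend with gene length was removed. The genes higher in adults were shorter, with a median exonic length of 1428 bases, than those lower, with 2130 bases, against 1777 bases for all tested genes. Adults held counts for 2169 genes that had none in the 3 embryo libraries, 621 of them over 10 CPM, whereas 528 genes had counts in embryos alone, 33 of them over 10 CPM. List counts that follow are against the lola-F control embryos. They are to be read beside the 40.1% higher and 26.4% lower of all tested genes. The lola-null control embryos carry the same age label, yet against the same adults they turned the direction of the median of 14 of the 52 lists and sets, which are taken up last. Whether either embryo set is at its labelled age was not tested, and each embryo value is to be read with that limit.

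**Figure D1:**
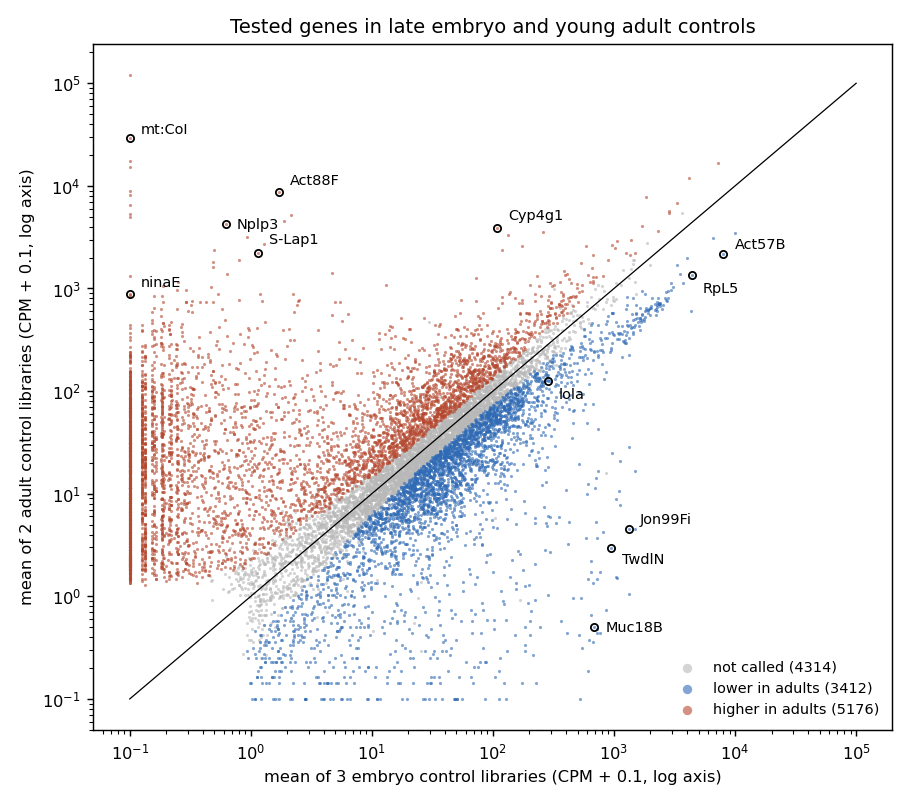
Mean level of each tested gene in the 3 embryo control libraries (horizontal) and the 2 adult control libraries (vertical), as CPM plus 0.1 on log axes, coloured by call. The 5176 genes higher in adults include a dense column at the left edge with no or almost no embryo counts, while the 3412 lower genes lie mostly close under the diagonal.

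**Figure D2:**
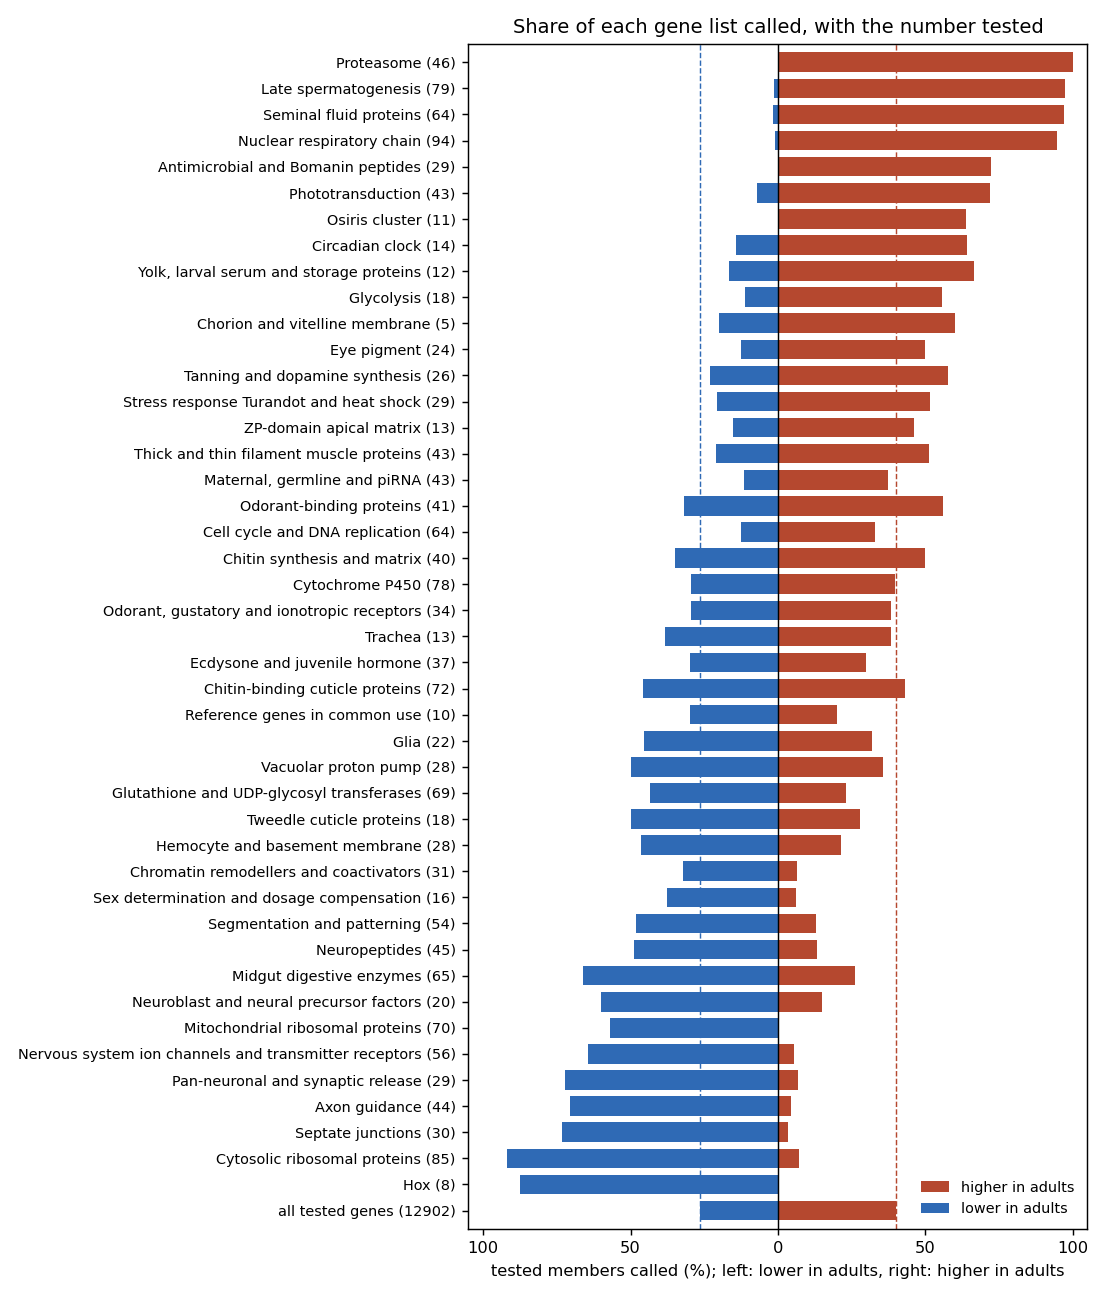
Percentage of the tested members of each gene list called higher (right) or lower (left) in adults, with the number tested in brackets and dashed lines at the 40.1% and 26.4% of all tested genes. Proteasome, sperm, seminal fluid and respiratory chain genes stand at the top, and Hox, ribosomal protein, septate junction and neuronal genes near the bottom.

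Male reproductive genes were almost all higher in adults. Of 79 tested late spermatogenesis genes, out of 88 listed, 77 were higher in adults, 75 of them over 4-fold, and of 64 seminal fluid genes 62 were higher, all 62 over 4-fold. The summed level of the spermatogenesis list was 165 to 187 CPM in the embryo libraries and 14450 and 21320 CPM in the adults, and that of the seminal fluid list 380 to 443 CPM and 9767 and 11219 CPM. With genes at 0 in the embryos set at their lower bound, the medians of the log2 differences were 9.42 and 8.36, beside 0.19 for all tested genes.

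S-Lap1, a leucyl aminopeptidase of sperm, stood at 1.03, 0.493 and 1.61 CPM in embryos and at 1778 and 2668 CPM in adults, 2040-fold higher (log2 difference 10.99, SE 0.47, adjusted p = 8.59e-07). Its relatives loopin-1, S-Lap7 and S-Lap4 reached 1125 to 2178 CPM in the adults and at most 1.28 CPM in any embryo library. The 12 genes with the largest rises outside the mitochondrial genome, a group chosen after their values were seen, were all at 0 in the 3 embryo libraries. Among them, ocn, a testis protein gene, stood at 317 and 504 CPM in adults, at least 3618-fold higher. Mst84Dd, a sperm tail gene, stood at 176 and 279 CPM, at least 2006-fold higher. Dup99B, a seminal peptide of the ejaculatory duct, stood at 181 and 202 CPM, at least 1690-fold higher. The rule for the largest rises took only genes whose groups did not overlap, so that separation is no added result for them.

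Ebp, the main mating plug protein gene of the ejaculatory bulb, stood at 0.513, 0.0986 and 0.564 CPM in embryos and 2060 and 2691 CPM in adults, 6080-fold higher. EbpIII, which shares the name, already had 60.0, 62.9 and 39.8 CPM in embryos and reached 887 and 654 CPM in adults, 14.2-fold higher. Sfp87B, a seminal fluid gene, had counts in 1 embryo library, at 0.161 CPM, and stood at 601 and 571 CPM in adults. One member of each list went the other way. These are dbe, a ribosome assembly factor gene, at 31.3, 39.1 and 25.3 CPM in embryos and 12.1 and 10.7 CPM in adults, and Esp, a sulphate transporter relative, at 28.5, 29.6 and 25.6 CPM and 10.7 and 11.5 CPM. Both lists were drawn by patterns in the gene symbols, and whether dbe and Esp belong to them was not tested. Their levels are part of the list sums.

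Subunit genes of large complexes differed by copy as well as by complex. All 46 tested proteasome genes were higher in adults, 30 of them over 4-fold, with a median log2 difference of 2.11. The proteasome degrades proteins tagged with ubiquitin. The regulatory subunit Rpn2 stood at 83.4, 90.0 and 66.9 CPM in embryos and 427 and 377 CPM in adults, 5.02-fold higher (adjusted p = 1.83e-05), with no overlap. The general core subunit Prosalpha6 rose 3.12-fold, from 36.7, 42.6 and 34.6 CPM to 121 and 116 CPM. Its testis copy Prosalpha6T had 1 count in the 3 embryo libraries together and 33.3 and 48.4 CPM in adults, a ratio of 1120 whose counting interval is wide. Of the 22 genes in pairs of a general and a testis copy, all 22 were higher in adults, 14 of them over 4-fold. Testis copies are also among the 46, so the list's counts and median are not those of general subunits alone.

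The nuclear genes of the respiratory chain were mostly higher in adults, 89 of 94, with 1 lower and a median log2 difference of 0.95. Of the 94, 25 were over 4-fold higher, a share near the 26.7% of all tested genes. ATPsynbeta, the catalytic subunit of ATP synthase, stood at 3231, 3424 and 3260 CPM in embryos and 7710 and 5998 CPM in adults, 2.07-fold higher (adjusted p = 0.00771). Of 40 genes in pairs of a general and a testis copy, some of them also on that list, 38 were higher in adults, 20 of them over 4-fold. COX4L, the testis copy of a cytochrome oxidase subunit, had 0, 0.197 and 0.242 CPM in embryos and 116 and 150 CPM in adults, while COX4 stood at 498, 557 and 571 CPM and 1133 and 763 CPM. ATPsynbeta was not called without embryo control 1 or 2 (adjusted p = 0.0528 and 0.0665), nor COX4 without either of those or adult control 1 (adjusted p = 0.065 to 0.0905). COX7A was the 1 lower gene, at 328, 391 and 360 CPM in embryos and 154 and 139 CPM in adults, and its copy COX7AL was at 0 in the 3 embryo libraries and 52.7 and 73.4 CPM in adults, at least 556-fold higher. Cyt-c-d, the cytochrome c of the testis, stood at 0.257, 0.197 and 0.161 CPM and then 120 and 187 CPM. The other cytochrome c gene listed, Cyt-c-p, was not found by name. The count of 89 fell to 49 without adult control 1, 35 between the mutant libraries and 31 with the length trend removed, where the median was -0.01.

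Cytosolic ribosomal protein genes moved the other way. Of 85 tested, 78 were lower in adults and 6 higher, with a median log2 difference of -1.69, and their summed level was 120931, 147589 and 141235 CPM in embryos and 51332 and 33176 CPM in adults. RpL5 stood at 4192, 4743 and 4226 CPM in embryos and 1568 and 1146 CPM in adults, 3.23-fold lower (adjusted p = 0.000814). RpL32, often used as a reference gene, stood at 1148, 1535 and 1591 CPM and then 434 and 278 CPM, 4-fold lower. The 6 higher members are all minor copies of other ribosomal genes: RpL10Aa, at 0 in embryos and 46.5 and 83.6 CPM in adults, RpL22-like, RpS19b, RpS28-like, RpL37-2 and RpS10a. RpL37-2 and RpS10a were not called without adult control 2 (adjusted p = 0.0722 and 0.0551). Their partners RpL10Ab, RpL22 and RpS19a were lower by 3.31-, 3.60- and 3.05-fold. Per kilobase of exon, 7 of the 8 most abundant embryo genes were ribosomal, led by RpL41 at a mean of 7518 CPM per kilobase in embryos and 2189 in adults. Mitochondrial ribosomal protein genes were lower less strongly, 40 of 70 with none higher and a median of -0.62. That count was 26 without embryo control 1, 17 without embryo control 2, 14 without adult control 2 and 70 with the length trend removed.

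The vacuolar proton pump, which acidifies organelles and the gut lumen, had 14 of 28 genes lower and 10 higher, all 10 over 4-fold, with a median of -0.32. Vha16-1, its membrane ring subunit, stood at 4154, 4183 and 4522 CPM in embryos and 573 and 630 CPM in adults, 7.13-fold lower (adjusted p = 3.24e-05). Vha68-2 was 3.58-fold lower, whereas its relative Vha68-3 stood at 0.257, 0.69 and 0.483 CPM in embryos and 144 and 213 CPM in adults. Vha100-3 was at 0 in embryos and 75.7 and 98.4 CPM in adults, at least 768-fold higher. Testis markers differed between the groups as given above, and their part in the higher paralogues was not tested.

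**Figure D3:**
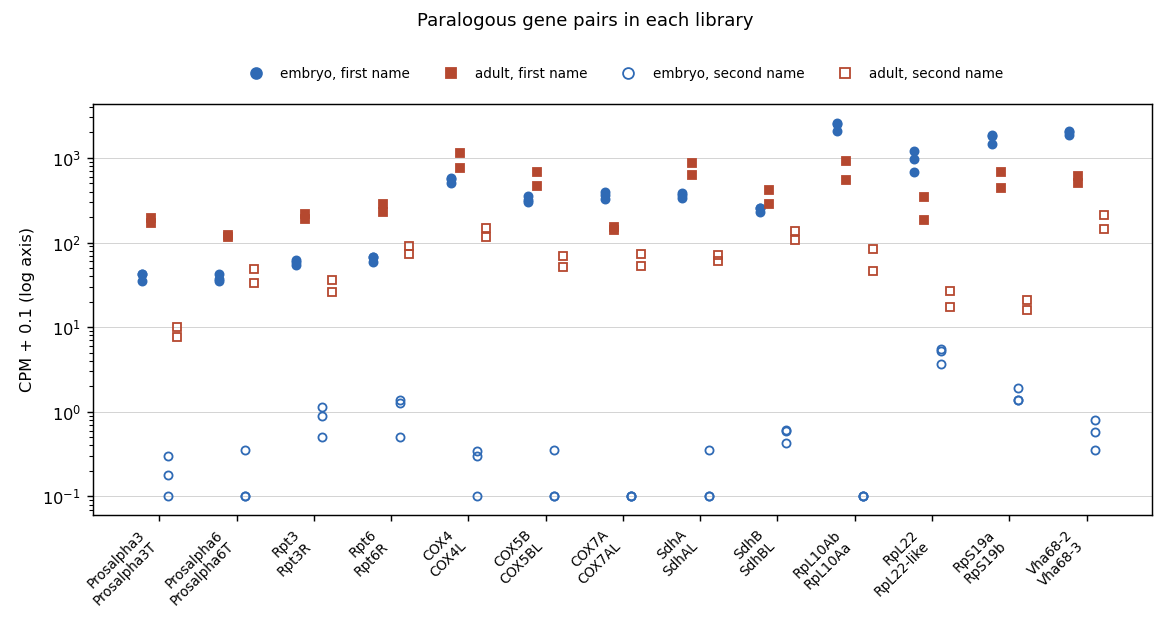
Level of 13 paralogous pairs in each library, as CPM plus 0.1 on a log axis, with filled symbols for the first-named copy, open symbols for the second, circles for the 3 embryo and squares for the 2 adult libraries. Open circles sit at or below 5.48 CPM before the offset, and every open square lies above the open circles of its pair.

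Genes of the adult eye were mostly higher in adults. Of 43 phototransduction genes, 31 were higher and 3 lower, with a median log2 difference of 3.12, and the summed level rose from 990 to 1357 CPM in embryos to 6002 and 6323 CPM in adults. ninaE, the main rhodopsin, was at 0 in the 3 embryo libraries and stood at 849 and 916 CPM in adults, at least 7783-fold higher. The visual arrestin Arr2 stood at 1.54, 2.17 and 3.22 CPM and then 643 and 730 CPM, 277-fold higher. The lower members were onecut, crb and ey, transcription factor and cell polarity genes that are not confined to the eye. crb lost its call whichever of the 5 libraries was left out, and ey whichever adult library was left out, with 1 gene called lower in either of those fits. Of 24 eye pigment genes 12 were higher and 3 lower, with a median of 0.61. The transporter gene w, white, stood at 15.4, 20.01 and 8.06 CPM and then 108 and 135 CPM, while cn and v, which make brown ommochrome precursors, were 11.9- and 4.07-fold lower. Neither w nor cn was called between the mutant libraries.

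The clock list had 9 of 14 genes higher and 2 lower, with a median of 1.55. The light receptor cry stood at 0.77, 0.197 and 0.242 CPM in embryos and 83.4 and 112 CPM in adults, 302-fold higher, and the clock gene tim at 6.42, 3.45 and 4.11 CPM and 210 and 139 CPM, 39.3-fold higher. The repressor cwo was 2.65-fold lower. The count of 2 lower clock genes was 1 without embryo control 1, embryo control 2 or adult control 2. Of 41 tested odorant-binding protein genes, out of 52, 23 were higher and 13 lower, 22 and 10 of them over 4-fold, with a median of 2.80. That median was 3.47 to 3.74 whichever embryo control was left out and 0.86 with the length trend removed. Obp19d, an antennal member, had 1 count in the embryo libraries and stood at 121 and 117 CPM in adults, whereas Obp56h stood at 46.2, 45.2 and 55.4 CPM in embryos and 0.385 and 0.769 CPM in adults, 78.9-fold lower. Among odorant, gustatory, ionotropic and pickpocket receptors only 34 of 209 had enough counts to test, with a median of 0.04, or -0.19 with upper quartile scaling. Of the 34, 13 (38.2%) were higher and 10 (29.4%) lower, near the 40.1% and 26.4% of all tested genes. Those counts were 5 and 2 without adult control 2, where the median was -0.55, and 6 were lower without embryo control 2 or adult control 1. The larval touch and pain channel genes ppk and ppk26 were 5.77- and 8.72-fold lower, and the olfactory receptors Or59b and Or59c were at 0 in embryos and at 3.42 to 4.53 CPM in adults.

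Muscle genes differed in both directions, by isoform. Of 43 thick and thin filament genes 22 were higher in adults and 9 lower, with a median log2 difference of 0.75 and a summed level of 40613, 42995 and 45968 CPM in embryos and 113163 and 73094 CPM in adults; without embryo control 2, 4 were lower. Mhc, the muscle myosin heavy chain, stood at 6763, 7089 and 7939 CPM and then 21804 and 11686 CPM, 2.31-fold higher (adjusted p = 0.0193). It lost its call whichever embryo library was left out (adjusted p = 0.0796 to 0.106). Act57B, an actin of larval muscle, stood at 7413, 8375 and 7845 CPM in embryos and 2777 and 1525 CPM in adults, 3.66-fold lower (adjusted p = 0.00186). Act88F, the actin of indirect flight muscle, stood at 2.57, 0.887 and 1.37 CPM and then 11435 and 6087 CPM, 6109-fold higher. Per kilobase, Act57B averaged 4570 CPM in embryos and 1248 CPM in adults, and Act88F 1.01 and 5493 CPM.

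All 6 actin genes differed: Act79B, of adult leg and other tubular muscle, was 2764-fold higher, Act87E 3.41-fold and Act42A 1.94-fold higher, and the cytoplasmic Act5C 2.56-fold lower. Troponin C, the calcium sensor of the thin filament, divided in the same manner. TpnC4, of flight muscle, had counts of 0.257, 0.197 and 0 CPM in embryos and stood at 1222 and 1102 CPM in adults, and TpnC41C rose 331-fold. TpnC47D stood at 509, 590 and 552 CPM in embryos and 65.8 and 64.9 CPM in adults, 8.42-fold lower, and TpnC73F was 2.04-fold lower. TpnC73F was not called without embryo control 1, embryo control 2 or adult control 2. Of the 8 tubulin genes found, 3 were higher and 2 lower. The listed betaTub56D and betaTub60D were not found by name and are not among them. The testis tubulin betaTub85D stood at 0.77, 0.887 and 1.61 CPM in embryos and 787 and 977 CPM in adults, 741-fold higher. The 2 lower tubulins were 4 without embryo control 3. Adult control 1 was the higher of the adult libraries for Mhc and for each of the 6 actins, and adult control 2 for the testis genes named above.

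**Figure D4:**
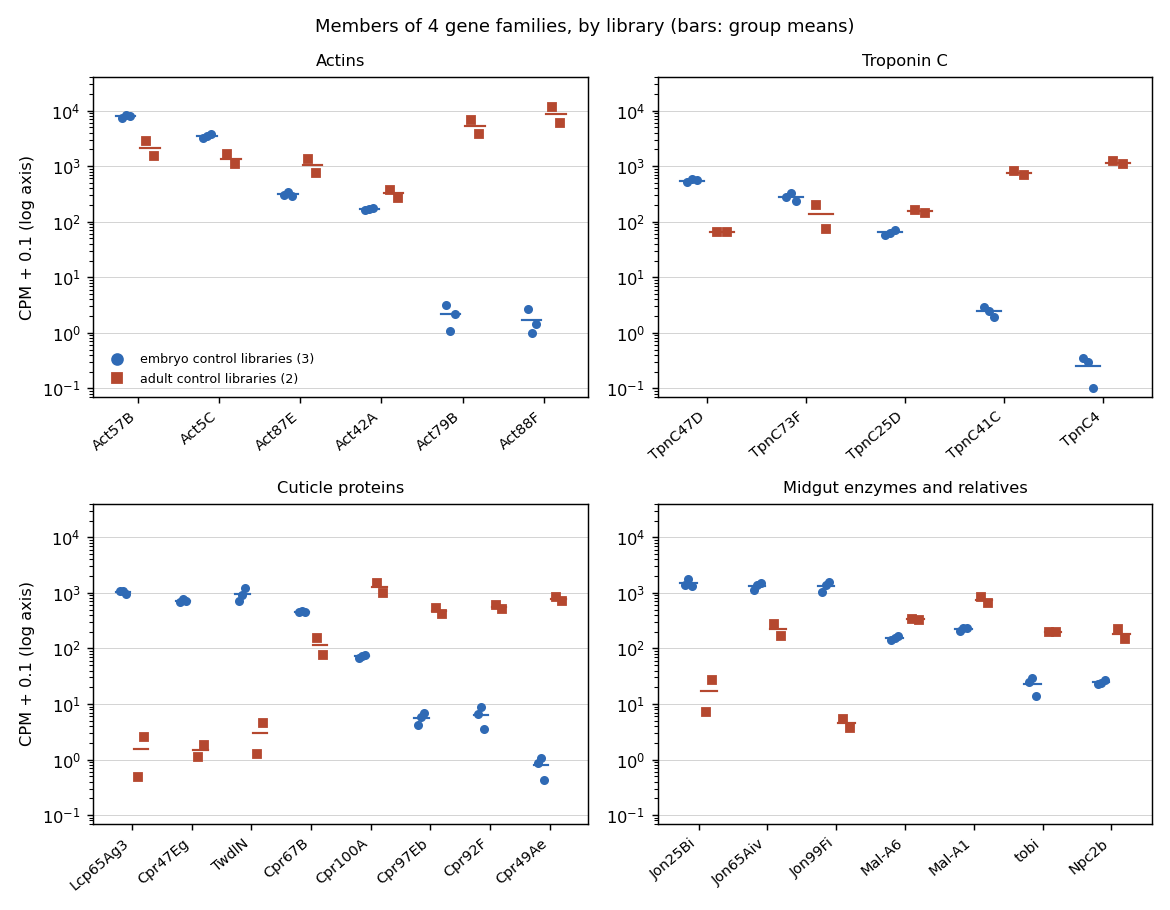
Levels of actin, troponin C, cuticle protein and midgut enzyme genes in each of the 3 embryo (circles) and 2 adult (squares) control libraries, as CPM plus 0.1 on a log axis, with bars at group means. Each family has members high in the embryo libraries and low in the adults and members with the opposite order, such as Act57B and Act88F.

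Cuticle protein genes were called in both directions in nearly equal numbers. Of 72 tested chitin-binding members, out of 97, 31 were higher in adults and 33 lower, 29 and 30 of them over 4-fold, with a median log2 difference of -0.18, and the list summed to 4705, 4935 and 4553 CPM in embryos and 5944 and 4754 CPM in adults. The larval cuticle gene Lcp65Ag3 stood at 1063, 1082 and 961 CPM in embryos and 0.385 and 2.48 CPM in adults, 660-fold lower (adjusted p = 4.98e-06). Cpr49Ae stood at 0.77, 0.986 and 0.322 CPM and then 838 and 720 CPM, 1167-fold higher, and Cpr100A at 66.7, 74.1 and 75.1 CPM and then 1500 and 1015 CPM, 17.4-fold higher. Lcp65Ag2 and Lcp65Ag3 are near copies, so their separate values are uncertain.

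Of 18 tested Tweedle cuticle genes, out of 26, 9 were lower and 5 higher, with a median of -1.15, and the family's sum went from 1244 to 1547 CPM in embryos to 49.3 and 135 CPM in adults. Without adult control 1, 8 were higher, and without adult control 2 the median was -2.98. Between the mutant libraries the median was 0.29. TwdlN stood at 713, 918 and 1205 CPM and then 1.16 and 4.53 CPM, 315-fold lower. The Osiris cluster, membrane proteins of cuticle-forming cells, had 7 of 11 tested genes, out of 22, higher and none lower, with a median of 4.44 and with Osi6 at 0.513, 0.394 and 0.161 CPM in embryos and 18.1 and 76.5 CPM in adults, so that the adult libraries differed more than 4-fold. The 12 largest falls include 4 mucin genes, which were on no list: Muc18B stood at 608, 741 and 715 CPM in embryos and 0.128 and 0.684 CPM in adults, 1478-fold lower, and Muc26B, Muc96D and Muc55B fell in the same way. RNaseMRP:RNA also met the rule for the 12 largest falls, but its 547 CPM in embryo control 1 faced 0.69 and 1.13 CPM in embryo controls 2 and 3, and it fell only through that library. It lost its call whichever adult library was left out. CG42815, with no given name, had the largest fall of any identifier, at 518, 541 and 516 CPM in embryos and 0 in both adults, at least 3411-fold lower.

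Genes of chitin synthesis and the cuticle matrix had 20 of 40 members higher (50%) and 14 lower (35%), with a median of 0.76. Of all tested genes 40.1% were higher and 26.4% lower. The deacetylase gene serp stood at 283, 307 and 142 CPM and then 706 and 497 CPM, 2.46-fold higher, and obst-E, which shapes larval cuticle, was 7.92-fold lower. ZP-domain apical matrix genes had 6 of 13 higher (46%) and 2 lower (15%), with a median of 0.45. Among them nompA, which links sensory dendrites to cuticle, was 6.03-fold lower. Without adult control 2, 3 of the ZP-domain genes were higher. Tanning genes, which harden and colour new cuticle through dopamine, had 15 of 26 higher and 6 lower, with a median of 1.09. The tyrosine hydroxylase gene ple stood at 166, 165 and 83.3 CPM in embryos and 1475 and 362 CPM in adults, and ebony, e, at 10.8, 13.1 and 10.3 CPM and then 567 and 176 CPM. Both are higher in adults (6.67- and 32.4-fold, adjusted p = 0.00257 and 3.52e-05), and both were over 3 times higher in adult control 1 than in adult control 2. Black, b, which supplies beta-alanine for tan cuticle, stood at 0, 0.394 and 0.242 CPM and then 331 and 189 CPM.

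Neuronal genes were mostly lower in adults than in the lola-F control embryos. Of 29 pan-neuronal and synaptic release genes 21 were lower and 2 higher, of 56 ion channel and transmitter receptor genes 36 were lower and 3 higher, and of 44 axon guidance genes 31 were lower and 2 higher. The medians were -1.004, -1.25 and -0.86, against 0.19 for all tested genes, and the 31 axon guidance genes were 18 without adult control 1 and 18 without adult control 2. The 2 higher axon guidance genes were 1 without embryo control 1, embryo control 2 or adult control 2 and none without adult control 1. The 3 higher channel and receptor genes were 6 without embryo control 3 and 1 without adult control 1. Syt1, the calcium sensor of synaptic vesicles, stood at 223, 173 and 308 CPM in embryos and 79.1 and 80.9 CPM in adults, 2.93-fold lower (adjusted p = 0.00105). Rdl, a GABA receptor subunit, stood at 88.5, 78.4 and 187 CPM and then 38.4 and 23.9 CPM, 3.80-fold lower, with embryo control 3 well above the other 2. It was not called without adult control 2 (adjusted p = 0.0767). Dscam1, a variable cell recognition molecule of axons, was 3.17-fold lower. Rbp9, an ELAV family RNA-binding protein gene, and comt, the vesicle fusion ATPase, went the other way, 2.63- and 2.06-fold higher.

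Neuropeptide genes had 22 of 45 lower and 6 higher, with a median of -0.72. Nplp3, labelled a neuropeptide-like precursor, stood at 0.513, 0.0986 and 0.967 CPM in embryos and 4114 and 4403 CPM in adults, 7463-fold higher, and per kilobase it was the 1 gene outside the mitochondrial genome among the 8 most abundant of adults, at a mean of 7915 CPM per kilobase. Nplp4 stood at 224, 306 and 267 CPM and then 10.4 and 4.36 CPM, 36.7-fold lower. Of 20 neuroblast and neural precursor genes 12 were lower and 3 higher, with a median of -1.80 and cas, a late temporal factor of neuroblasts, 20-fold and Kr, an earlier one, 17.3-fold lower. The 3 higher were 5 without embryo control 3 and 1 without adult control 1. Glial genes divided, with 7 of 22 higher and 10 lower and a median of -0.47: Eaat1, the glutamate transporter, was 2.61-fold higher, and Mdr65, a transporter of the blood-brain barrier, 4.25-fold lower. The 10 lower glial genes were 5 without adult control 1 and 4 without adult control 2.

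Most Hox genes were lower in adults, as were 26 of 54 other patterning genes. Of 8 Hox genes, which give segments their identity, 7 were lower, pb did not pass the test, and the median was -1.20; without adult control 2, 4 were called. Antp stood at 30.8, 24.2 and 38.8 CPM in embryos and 7.32 and 7.01 CPM in adults, 4.37-fold lower, and the abdominal gene abd-A at 63.4, 55.2 and 99.6 CPM and then 30.8 and 27.8 CPM, 2.49-fold lower. Without adult control 2, abd-A was not called (adjusted p = 0.0582). Of the 54 segmentation and patterning genes 26 were lower, 7 higher and 21 not called, with a median of -0.66. Without adult control 2 the counts were 16 and 4, and without adult control 1, 3 were higher. prd, a pair-rule gene that the male accessory gland also uses, stood at 0, 0.296 and 0.161 CPM and then 18.1 and 20.3 CPM. Septate junction genes, which seal epithelia, had 22 of 30 lower and 1 higher, with a median of -0.97 and mesh, of the gut junctions, at 695, 735 and 1072 CPM in embryos and 145 and 119 CPM in adults, 6.32-fold lower. Tracheal genes had 5 of 13 (38.5%) in each direction, beside 40.1% higher and 26.4% lower of all tested genes. Their median was -0.27, and rib, a tube morphogenesis factor, was 4.68-fold lower. The 5 higher tracheal genes were 3 without embryo control 1 or 2 and 2 without adult control 1. The median turned to 0.30 without embryo control 3.

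Digestive enzyme genes were mostly lower in adults than in the lola-F control embryos. Of 65 midgut genes 43 were lower in adults and 17 higher, 30 and 10 of them over 4-fold, with a median of -1.80, and the list summed to 14995, 18378 and 18509 CPM in embryos and 5194 and 4308 CPM in adults. The serine protease Jon99Fi stood at 1030, 1402 and 1541 CPM and then 5.27 and 3.59 CPM, 302-fold lower (adjusted p = 1.15e-06), and Jon25Bi at 1408, 1765 and 1318 CPM and then 7.06 and 26.4 CPM, 88.2-fold lower. Jonah proteases have near-identical copies whose shared reads were not counted. The maltase gene Mal-A1 went the other way, at 202, 230 and 230 CPM and then 841 and 670 CPM, 3.42-fold higher, and the glucosidase gene tobi was 8.86-fold higher.

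Storage protein genes and a major oenocyte gene were higher in adults, while lipid carrier genes were lower. The larval storage protein gene Lsp2 stood at 1.54, 1.38 and 0.161 CPM in embryos and 427 and 394 CPM in adults, 462-fold higher, and the storage protein receptor gene Fbp1 was 209-fold higher. Of 12 tested yolk, larval serum and storage genes 8 were higher and 2 lower, with a median of 5.36, the lipid carrier genes apolpp and Apoltp being 3.24- and 2.65-fold lower. The list summed to 2800, 2397 and 3704 CPM in embryos and 2055 and 1891 CPM in adults, so that its total was lower in adults although most members were higher. Of 78 cytochrome P450 genes 31 (39.7%) were higher and 23 (29.5%) lower, near the 40.1% and 26.4% of all tested genes. Their median was 0.02, or -0.22 with upper quartile scaling. Without adult control 2, 12 were lower. Cyp4g1, which makes the waxy hydrocarbons of the cuticle in oenocytes, stood at 111, 103 and 111 CPM and then 4161 and 3668 CPM, 36.2-fold higher (adjusted p = 1.01e-06). Glutathione and UDP-glycosyl transferases had 30 of 69 lower and 16 higher, with a median of -0.51 and GstS1, abundant in flight muscle, 13.7-fold higher. In glycolysis 10 of 18 genes were higher and 2 lower, with a median of 0.68. Gpdh1, of the glycerol phosphate shuttle, was 4.41-fold higher, and Ldh, lactate dehydrogenase, stood at 408, 461 and 497 CPM in embryos and 69.5 and 57.6 CPM in adults, 7.17-fold lower (adjusted p = 1.04e-05).

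Immune effector genes were mostly higher in adults, though less so once the length trend was removed. Of 29 tested antimicrobial and Bomanin peptide genes, out of 38, 21 were higher and none lower, with a median of 2.96 and BomBc2 at 9.24, 8.08 and 2.82 CPM in embryos and 327 and 298 CPM in adults, 48.8-fold higher. With the length trend removed 10 were higher and 6 lower, with a median of 0.65, and without embryo control 3, 2 were lower. Stress genes had 15 of 29 higher and 6 lower, with a median of 1.42. The mitochondrial chaperone copies Hsp60C and Hsp60B, known from spermatogenesis, were among the higher, with Hsp60C at 0.257, 0.493 and 0.403 CPM and then 642 and 821 CPM, whereas the general copy Hsp60A was 1.71-fold lower. Hsp60A lost its call when any library other than embryo control 3 was left out (adjusted p = 0.0858 to 0.189), and the 6 lower stress genes were 3 without embryo control 2. Hemocyte and basement membrane genes had 13 of 28 lower and 6 higher, with a median of -0.48. Col4a1, a collagen IV chain, stood at 2554, 2854 and 3479 CPM in embryos and 1142 and 775 CPM in adults, 3.09-fold lower, and laminin LanA was 5.61-fold lower, while NimC4, a receptor for dying cells, was 153-fold higher.

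Of 64 cell cycle genes 21 were higher, 8 lower and 35 did not pass the test, with a median of 0.21 that was -0.03 with upper quartile scaling. The 8 lower genes were 24 without embryo control 3, 5 without embryo control 1, 4 without adult control 1 and 3 without adult control 2, and 13 were higher without adult control 2. The meiotic phosphatase twe stood at 1.54, 0.69 and 0.403 CPM and then 29.4 and 33.8 CPM, 43.2-fold higher, and polo, a mitotic kinase, was 9.64-fold higher. Neither twe nor polo was called between the mutant libraries. Mcm6, of the replication helicase, was 2.38-fold lower. Mcm6 lost its call whichever adult library was left out (adjusted p = 0.117 and 0.0691). Of 43 maternal, germline and piRNA genes 16 (37.2%) were higher and 5 (11.6%) lower, against 40.1% and 26.4% of all tested genes. Their median was 0.55. The RNA localization factor exu, of both germ lines, stood at 6.16, 5.72 and 2.58 CPM and then 608 and 875 CPM, 160-fold higher. The transposon silencing gene piwi was 5.39-fold lower. The 16 higher germline genes were 10 whichever adult library was left out, and the 5 lower were 2 to 8 over the 5 fits that each left out 1 library. Of the eggshell list only 5 of 22 had enough counts to test, with a median of 1.82, or 3.38 without embryo control 1 and 3.39 without embryo control 3. Its 3 higher members include Cp110, and its 1 lower member is Cp190, both centrosomal protein genes caught by the Cp prefix. The median of 1.82 is the value of Cp110, so it does not describe eggshell genes. The eggshell genes yellow-g and Cp15 were also higher, at 13.4 CPM or less in adults.

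Sex determination genes had 6 of 16 lower and 1 higher, with a median of -0.50. dsx, the switch gene at the end of the pathway, stood at 2.05, 1.38 and 1.93 CPM in embryos and 53.2 and 60.6 CPM in adults, 32.3-fold higher, and Sxl, at its head, at 164, 147 and 174 CPM and then 33.7 and 36.7 CPM, 4.60-fold lower. The 6 lower genes were 2 without adult control 1 and 3 without adult control 2. Ecdysone and juvenile hormone genes had 11 of 37 (29.7%) in each direction, beside 40.1% higher and 26.4% lower of all tested genes. Their median was -0.09, and near 0 with RLE size factors. The metamorphosis factor gene Eip93F stood at 0.513, 0.887 and 0.242 CPM and then 163 and 52.7 CPM, 196-fold higher. Jheh3, which degrades juvenile hormone, was 4.90-fold lower. Chromatin remodellers and coactivators had 10 of 31 lower (32.3%) and 2 higher (6.45%), with a median of -0.42. The share lower is near the 26.4% of all tested genes, and the share higher is under their 40.1%. The 10 lower were 5 without adult control 1 and 4 without adult control 2, and none was then higher. Of 10 genes in common use as references, 2 (20%) were higher and 3 (30%) lower, beside 40.1% and 26.4% of all tested genes. The median was -0.06, or 0.03 with RLE size factors. RpL32, Act5C and Polr2A were lower, and Gapdh1 and SdhA higher. eIF1A stood at 198, 216 and 232 CPM and then 249 and 242 CPM without passing the test.

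Libraries of other genotypes and another embryo set were set beside these values. The 3 lola-F mutant embryo and 2 lola-O mutant adult libraries share no library with the controls. Of 5082 genes higher in the adult controls and tested in both, 4520 (88.9%) were also called higher in the mutant adults, as were 2817 of 3371 lower genes (83.6%), and 17 were called in opposite directions. These are 90.1% and 79.9% of the genes called higher and lower between the mutants. In the mutants 40.4% of 13164 tested genes were higher and 27.0% lower.

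The lola-null control embryos carry the same genotype label and the same age of 15 h, and come from a different library set. Since they were compared with the same 2 adult libraries, only each comparison's own values are given. There, 47.9% of 12620 tested genes were higher in adults and 32.1% lower. Male reproductive lists stood alike, with 74 of 79 spermatogenesis and 62 of 64 seminal fluid genes higher. Midgut enzymes, 17 higher and 43 lower against the lola-F controls, were 56 higher and 1 lower of 58 against the lola-null controls. Cuticle proteins were 39 higher and 4 lower of 49, pan-neuronal genes 20 higher and 4 lower of 29, ion channels and receptors 41 higher and 5 lower of 56, and neuropeptides 36 higher and 1 lower of 41. Cell cycle genes were 63 lower of 65 with none higher, and Osiris genes 15 lower of 15. Maternal, germline and piRNA genes, 16 higher and 5 lower above, were 6 higher and 34 lower of 46, with a median of -2.39. ZP-domain genes were 4 higher and 8 lower of 13, with a median of -3.84, and eye pigment genes 9 higher and 11 lower of 24, with a median of -0.22. The vacuolar proton pump was 21 higher and 2 lower of 28, with a median of 1.79, and glutathione and UDP-glycosyl transferases 38 higher and 11 lower of 65, with a median of 1.42. Tweedle genes were 8 higher and 2 lower of 16, with a median of 0.92, and hemocyte and basement membrane genes 12 higher and 11 lower of 28, with a median of 0.39. P450 genes, near even above, were 59 higher and 7 lower of 78. For these lists, other than the P450 genes, the direction of the median rested on which set of embryos labelled 15 h was used. Ribosomal, axon guidance, septate junction and Hox genes were mostly lower, and proteasome and phototransduction genes mostly higher, with either embryo set.

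**Figure D5:**
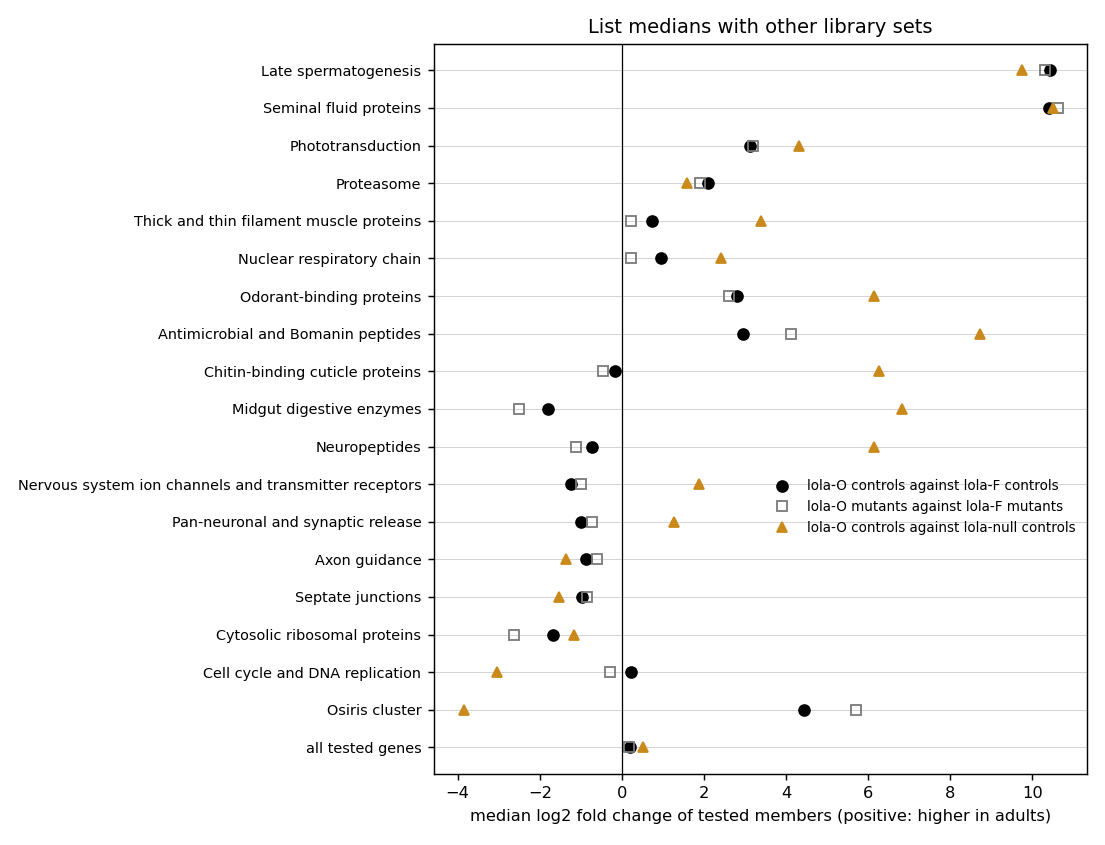
Median log2 difference of the tested members of 18 lists and of all tested genes, positive where higher in adults, for the controls described here (black circles), the mutant libraries (open squares) and the same adult controls against the lola-null control embryos (triangles). Circles and triangles lie on opposite sides of 0 for the midgut, cuticle, neuropeptide, ion channel, pan-neuronal, cell cycle and Osiris lists.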

How the data were processed

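Libraries were prepared with the NEBNext Ultra Directional kit, per the labels' protocols. STAR 2.5.0c, HTSeq 0.6.1p1 and the build BDGP6 are named in the submitters' processing notes, and neither the annotation release nor the strand setting is recorded there. The deposited files hold raw counts of reads per gene, 1 file per library, and their 5 summary rows were left out of library sizes and tests. Identifiers were named from the BDGP6.54 annotation, which matched 17252 of 17558 and left 306 unmatched.

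Counts of the 5 libraries were filtered with filterByExpr, scaled by TMM (factors 1.171, 1.116 and 1.076 for the embryos, 0.7725 and 0.9204 for the adults) and tested with edgeR 4.0.16 by its quasi-likelihood test in R 4.3.3, with limma 3.58.1 loaded and DESeq2 1.42.0 as an alternative. All p-values were adjusted over all tested genes by the Benjamini-Hochberg method, and genes under 0.05 were called. A fold against a group at 0 is a lower bound, taken against a floor of 3 counts over the group, and a ratio against 1 to 3 counts has an exact 95% counting interval. Floors and intervals cover counting error only. The fit was tested on simulated data in which few genes changed, as many up as down, unlike the many calls here. That test does not cover scaling between groups this different.

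The 45 gene lists and 7 paralogue sets were chosen with earlier results of these data known, so they are described by counts and medians and not tested as sets. Listed names that were not found, among them para, unc-18, VAChT, wupA and bent, are left out of them. Genes were named by a rule: the 12 largest rises and falls among called genes with a mean of at least 50 CPM in the higher group and groups that do not overlap, up to 4 called members of each list in each direction, members of paralogue sets and of lists of 12 or fewer, the 8 most abundant per kilobase in each group, lola, and cell type markers. Not all genes that the rule names are printed. Plots of levels add 0.1 CPM. Replicate numbers were checked for pairing and share only a number. Alternatives covered scaling, the filter, the tool, each library left out, a replicate block, gene length, a fit over 10 libraries, other library sets, and the mitochondrial and ribosomal RNA genes left out.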

Additional observations from a re-analysis of the deposited data

How the results depend on the processing

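The counts of 5176 genes higher and 3412 lower moved by less than 1.5 times under every alternative run, and leaving out each library in turn gave 4384 to 5285 higher and 2355 to 3639 lower, or 3210 to 3536 and 966 to 1040 over 4-fold. The 1062 genes lower over 4-fold became 1756 with the length trend removed and 1667 against the lola-null control embryos. DESeq2 called 5377 higher and 3102 lower, and leaving out mitochondrial genome and ribosomal RNA genes, an alternative chosen after seeing the data, gave 5422 and 3163. Over the 45 lists and 7 paralogue sets under 15 alternatives, 186 counts moved by over 1.5 times and 1374 did not, 53 of those that moved being against the lola-null control embryos. Of the list medians 142 moved and 637 did not, with 43 of 52 moved against the lola-null control embryos, 27 between the mutant libraries, 25 with the length trend removed and 16 with upper quartile scaling. With the length trend removed the medians were -1.31 for cuticle proteins, -2.69 for midgut enzymes, -1.99 for neuropeptides, -2.92 and -2.14 for cytosolic and mitochondrial ribosomal proteins, -1.31 for the vacuolar proton pump, -1.29 for glutathione and UDP-glycosyl transferases and 1.49 for the proteasome.

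Against the lola-null control embryos, 24 named genes had the opposite direction, and their log2 differences there were 5.83 for Jon25Bi, 5.74 for Jon99Fi, 8.97 for Nplp4, 5.96 for obst-E, 4.79 for Rdl, 3.44 for Mdr65, 2.20 for ppk, 2.26 for ppk26, 1.71 for Vha68-2, 1.64 for Syt1, 1.30 for v, 1.17 for Col4a1, 0.66 for COX7A, 0.47 for Vha16-1, 0.41 for TpnC73F, 0.33 for Act57B and 0.16 for Muc55B. In the other direction they were -4.82 for Osi6, -4.76 for Osi7, -3.22 for polo, -2.16 for twe, -1.07 for Act42A, -1.05 for NimC4 and -0.60 for Prosalpha6. A further 8 named genes kept their direction against those embryos but were not called. Their log2 differences were -0.20 for TwdlN, -0.16 for TpnC47D, -0.05 for cwo and -0.45 for Apoltp. For Hsp60A, ey, Act5C and verm they were -0.56, -0.64, -0.79 and 0.61. Between the mutant libraries the opposite direction was found for RNaseMRP:RNA at 0.23, crb at 0.28, Act87E at -0.0612 and COX4 at -0.0153. Between those libraries a further 12 named genes kept their direction but were not called. Their log2 differences were 1.403 for twe, 1.195 for polo, 1.469 for w and 0.2559 for verm. For cn, mira, Mcm6 and ey they were -1.096, -1.143, -1.029 and -0.5989. For lola, onecut, Hsp60A and apolpp they were -0.5371, -0.5364, -0.3395 and -0.1587. With the length trend removed, RpL37-2 took the opposite direction, at -0.80. The cause of these changes was not tested.

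Named genes lost their call 11 times without adult control 2, 9 times without adult control 1, and 6, 6 and 2 times without embryo controls 1, 2 and 3. Of these, crb lost it without each library in turn and with DESeq2 (adjusted p = 0.119), Mhc without each embryo library, and Hsp60A without each library but embryo control 3. Replicate numbers do not pair the samples: deviations of same-numbered embryo and adult libraries correlated at -0.0583 and -0.0282. A replicate block gave 5402 higher and 3809 lower, with 3437 and 1066 over 4-fold, and ATPsynbeta, Act5C, COX4, Mhc and verm were then not called, and the tracheal median was 0.29. With 3 and 2 libraries, and embryo control 1 at 3326811 counts, small differences of low genes were not detectable at this depth.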

Other observations

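Genes were also counted by chromosome, as a description and with no test of chromosomes against each other. The 13 tested Y-linked genes include 12 higher in adults, all 12 over 4-fold. kl-5, a dynein heavy chain gene of the sperm tail, stood at 0, 0.0986 and 0 CPM in embryos and 27.7 and 26.6 CPM in adults, and kl-3 and kl-2, of the same family, were at 0 in embryos and at 13.5 and 17.3 CPM and 9.38 and 10.7 CPM in adults. On chromosome 4, 39 of 93 tested genes were lower in adults and 11 higher, with a median log2 difference of -0.46, beside 26.4% lower and a median of 0.19 for all tested genes. zfh2, a neuronal transcription factor gene on chromosome 4, stood at 120, 92.8 and 155 CPM in embryos and 14.4 and 19.9 CPM in adults. Genes over 4-fold higher in adults made up 21.9% of tested genes on the X and 32.4% on chromosome arm 2L, with medians of -0.02 and 0.35. That share was 26.7% over all tested genes, and 26.9%, 26.1% and 26.8% on arms 2R, 3L and 3R. The genes kl-5, kl-3, kl-2 and zfh2 were chosen after their values were seen.

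The adult libraries differed from each other in several lists. Muscle filament genes summed to 113163 CPM in adult control 1 and 73094 CPM in adult control 2, and tanning genes to 3835 and 1958 CPM. Osiris genes summed to 54.3 and 199 CPM and late spermatogenesis genes to 14450 and 21320 CPM, in both cases higher in adult control 2. lncRNA:roX1, an RNA of male dosage compensation, also chosen after its values were seen, stood at 340, 319 and 411 CPM in embryos and 950 and 354 CPM in adults, and did not pass the test (adjusted p = 0.0694), although 6 alternatives called it, among them the one without adult control 2, with a log2 difference of 1.42 (adjusted p = 0.00392). It took 237 genes in adult control 1 and 465 in adult control 2 to reach the first 50% of counts, where the mitochondrial genome, listed at 0 in the embryo files, took 21.5% and 14.7% of the adult counts. Whether the 2 pools differed in age within the 10 h window or in the share of males is not stated in the labels.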
